A study of Mus musculus with 6 samples.

Results

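A set of 9 genes of interferon signalling was examined in mouse subcutaneous white adipose tissue, the fat under the skin: the receptor chains Ifnar1, Ifnar2 and Ifngr1, the transcription factors Stat2, Irf9, Irf1 and Irf7, and the negative regulators Usp18 and Socs1. They were taken by exact symbol, and all 9 were found among 36144 gene rows and were among the 14144 genes tested. Poly-A RNA of 6 libraries was sequenced, 3 titled Tumor and 3 titled WT. By the genotype label the Tumor libraries come from Msra full-body knockout mice and the WT libraries from Msra wild-type mice, and all 6 carry a label of orthotopic transplant. The design text names pancreatic ductal adenocarcinoma cells as the graft in both kinds of host, with tissue collected at 4 to 5 weeks. The series title instead sets tumour-bearing mice against tumour-free controls. The groups are therefore called by their titles, and a genotype, a tumour and a batch that follow the titles cannot be told apart. The labels give no sex, age or strain.

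Interferons are cytokines that warn cells of viral infection and other damage. Type I interferons bind the chains Ifnar1 and Ifnar2, and interferon gamma binds Ifngr1 with Ifngr2. Janus kinases bound to the receptors then phosphorylate Stat proteins. Stat2 and Irf9 belong to the complex that binds the interferon-stimulated response element, while Stat dimers bind the gamma-activated site. Irf1 and Irf7 are both transcription factors and targets of the pathway, and Usp18 and Socs1 are targets that dampen it. Adipocytes and immune cells of fat tissue both carry these receptors.

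The libraries differed in cell types in a way that crossed the groups. The 8 B cell markers summed to 10.7, 1585 and 2320 TPM (a length-corrected share of the transcripts in a library) in Tumor replicates 1, 2 and 3, and to 929, 755 and 5.03 TPM in WT replicates 1, 2 and 3. Tumor replicate 1 and WT replicate 3 therefore held few lymphoid transcripts (called lymphoid-poor below), and the 7 markers of lymph node vessels and stroma and the 9 T cell markers divided the libraries in the same way. The 8 macrophage markers summed to 2190 TPM in Tumor replicate 1 and to 990 to 1103 TPM in the other 5 libraries. Of these markers 7, all but Mrc1, had a higher mean log2(TPM + 1) in the libraries titled Tumor, against 76.8% of all genes tested. Cd68 and Csf1r (25%, against 11.8% of all genes tested) were higher in every Tumor library than in every WT library. For Cd68 the margin was narrow, at 83.04 TPM in Tumor replicate 2 and 82.77 TPM in WT replicate 1. Whether either gene stayed without overlap after scaling was not examined. The 8 skeletal muscle markers summed to 1946, 619.7 and 2486 TPM in Tumor replicates 1, 2 and 3, and to 19.7, 2973 and 9.83 TPM in WT replicates 1, 2 and 3, so that every Tumor library and 1 WT library were rich in muscle transcripts. Adipocyte markers were present throughout, from 12157 TPM in Tumor replicate 3 to 52720 TPM in WT replicate 3. Msra was measured at 26.9 to 52.9 TPM in the libraries labelled Tumor and at 51.1 to 59.1 TPM in those labelled WT, so that the transcript was not lost where the label says knockout. A value over the whole gene does not show whether an exon is missing. In whole tissue, fewer cells of a type and less RNA per cell cannot be told apart.

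The members lie on 6 chromosomes (GRCm38, GENCODE M21). Ifnar1 and Ifnar2, whose products form the type I receptor, lie on chromosome 16 at 91485238 to 91507441 and 91372783 to 91405589. Socs1 lies on the same chromosome at 10782240 to 10785536. Ifngr1 and Stat2 lie on chromosome 10 at 19591949 to 19610229 and 128270559 to 128292849. Irf1 lies on chromosome 11 at 53770014 to 53778374, Irf7 on chromosome 7 at 141262706 to 141266481, Irf9 on chromosome 14 at 55603571 to 55610030 and Usp18 on chromosome 6 at 121245906 to 121270917. Each value sums all transcripts of its gene, so membrane-bound and soluble forms of Ifnar2 were not told apart. Irf9 overlaps Rnf31 and Ifnar2 overlaps Gm21970, both protein-coding and on the same strand. Irf7 overlaps Phrf1, Irf1 overlaps Gm17334 and Usp18 overlaps Gm44148 on the other strand, and how shared reads were divided is not known.

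Promoter stretches of Stat2, Socs1 and Irf1 are shown because they hold the letters of the response elements described above. They are the 250 bases before the RefSeq transcription start (GRCm38.p6), written 5′ to 3′ on the gene's strand, at chr10:128270248-128270497 (plus strand), chr16:10785537-10785786 (minus strand) and chr11:53769764-53770013 (plus strand). Capitals mark the interferon-stimulated response element core (GAAA, any 2 bases, GAAA, or on the other strand TTTC, any 2 bases, TTTC) in Stat2 and Socs1, where 2 overlapping matches merge in Socs1, and the gamma-activated site TTCNNNGAA in Irf1.
Stat2: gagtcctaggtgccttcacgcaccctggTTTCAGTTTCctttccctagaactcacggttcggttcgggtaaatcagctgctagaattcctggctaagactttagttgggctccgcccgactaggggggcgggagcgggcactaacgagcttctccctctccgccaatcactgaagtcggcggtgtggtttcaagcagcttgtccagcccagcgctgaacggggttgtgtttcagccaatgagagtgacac
Socs1: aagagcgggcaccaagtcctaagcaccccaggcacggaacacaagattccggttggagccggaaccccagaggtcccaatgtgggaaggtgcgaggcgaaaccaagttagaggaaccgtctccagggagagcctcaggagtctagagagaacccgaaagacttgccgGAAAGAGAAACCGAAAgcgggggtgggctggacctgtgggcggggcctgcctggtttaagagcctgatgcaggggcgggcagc
Irf1: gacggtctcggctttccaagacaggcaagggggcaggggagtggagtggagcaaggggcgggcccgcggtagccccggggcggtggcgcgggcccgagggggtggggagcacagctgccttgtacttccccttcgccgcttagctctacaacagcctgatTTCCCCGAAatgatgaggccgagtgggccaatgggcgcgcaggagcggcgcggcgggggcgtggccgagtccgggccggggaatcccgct
Of the 9 members 8 have promoters in the RefSeq table, and Usp18 has none there. In these windows of 250 bases before and 50 bases after the start, Stat2 and Socs1 held the response element core, and Irf1, Ifnar1 and Ifnar2 held the gamma-activated site. Among all 32851 promoters of the same length, 3.44% held the first motif and 8.3% the second. Of the members with the response element core, Stat2 was higher in every Tumor library and Socs1 was not, as given below. The 3 members with the gamma-activated site all overlapped between the groups. Of those with a promoter but neither motif, Irf7 and Ifngr1 did not overlap and Irf9 did. A link between the motifs and the differences was not tested.

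No member passed the test between the groups. With limma on log2(TPM + 1), 0 of 9 members and 0 of 14144 genes (0%) had an adjusted p below 0.05, and the members' adjusted p ran from 0.737 to 0.990. At an unadjusted p below 0.05 there were 3 members, Irf7, Stat2 and Usp18, all higher in the libraries titled Tumor, where 3.75% of all genes tested were higher at that level (530 genes). Every Tumor library lay above every WT library for 4 members, Irf7, Stat2, Usp18 and Ifngr1, against 11.8% of all genes tested. A positive difference was found for 8 members and for 76.8% of all genes tested. After median-ratio or upper-quartile scaling it was found for 6 members, and for 55.4% or 58% of all genes. The median log2 difference of the members was 0.51, and that of all genes tested was 0.23. With median-ratio factors, which moved the median of all genes to 0.04, the members' median was 0.30. Under these factors 2 members, Irf7 and Stat2, were still without overlap, against 3.79% of all genes higher in the libraries titled Tumor, and the same 2 under upper-quartile factors, against 4.5%. With 3 libraries in each group the smallest p of an exact permutation test is 0.1.

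**Figure D1:**
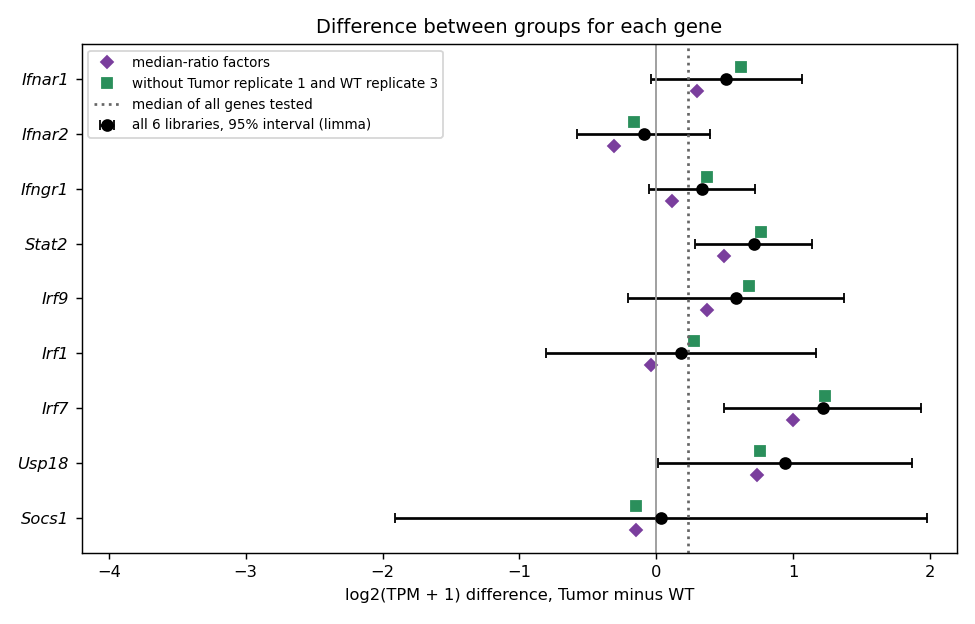
Difference of each gene between the groups, on the log2(TPM + 1) scale as Tumor minus WT, with 95% intervals from limma over all 6 libraries. Diamonds give the value with median-ratio factors and squares the value without Tumor replicate 1 and WT replicate 3. The intervals of Irf7, Stat2 and Usp18 lie above 0, and before adjustment over all genes these 3 had p below 0.05.

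Among the receptor chains, Ifnar1, the chain that carries Tyk2, was at 27.8, 36.0 and 43.8 TPM in the libraries titled Tumor and at 29.4, 22.05 and 22.5 TPM in those titled WT. Tumor replicates 2 and 3 were the highest, and Tumor replicate 1 lay within the WT range. The means were 35.8 ± 7.98 and 24.6 ± 4.13 TPM (SD, n = 3) and differed by 0.51 on the log2 scale (SE 0.23, limma adjusted p = 0.737). Ifnar2, the chain that binds type I interferon most tightly and carries Jak1, was at 138, 109 and 91.7 TPM in the libraries titled Tumor and at 114, 110.3 and 134 TPM in those titled WT. The lymphoid-poor libraries of both groups were the highest, and the groups overlapped. Its log2 difference was -0.09 (SE 0.20, limma adjusted p = 0.885), the single negative one among the members, and it was 0.046 without Tumor replicate 3.

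Ifngr1, the ligand-binding chain of the interferon gamma receptor, was at 209, 195 and 187 TPM in the libraries titled Tumor and at 141, 154 and 175 TPM in those titled WT. All Tumor values lay above all WT values, by 1.26-fold in the means of 197 ± 11.3 and 156 ± 17.2 TPM (SD, n = 3). The log2 difference was 0.33 (SE 0.16, limma adjusted p = 0.737), and after median-ratio factors it was 0.12 and the groups overlapped. The Ifnar2 to Ifnar1 ratio of TPM within a library was 4.97, 3.03 and 2.10 in the libraries titled Tumor and 3.88, 5.00 and 5.94 in those titled WT. Tumor replicates 2 and 3 had the lowest ratios, and Tumor replicate 1 lay within the WT range. Such a ratio does not depend on the scaling of a library.

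Among the transcription factors, Irf7, which drives the type I interferon genes and their amplification, had the largest difference of the members in the fit of all 6 libraries without covariates. It was at 89.1, 116 and 124 TPM in the libraries titled Tumor and at 36.3, 70.2 and 38.9 TPM in those titled WT. Every Tumor value lay above every WT value, and this held with both scaling alternatives. The means were 109.8 ± 18.3 and 48.4 ± 18.9 TPM (SD, n = 3), a ratio of 2.27 and a log2 difference of 1.21 (95% interval 0.49 to 1.94, limma adjusted p = 0.737, unadjusted p = 0.00623). WT replicate 2, the WT library with the most Irf7, is also the one rich in muscle transcripts. Once the mean log2 level of the muscle markers entered as a covariate, an alternative chosen after seeing the data, the log2 difference of Irf7 was 0.80 (limma adjusted p = 0.688), below the 0.86 of Stat2, and without WT replicate 1 it was 1.04, below the 1.07 of Usp18. Siglech, a marker of plasmacytoid dendritic cells, which hold much Irf7, was at 2.52, 27.9 and 32.1 TPM in the libraries titled Tumor and at 21.2, 26.5 and 1.05 TPM in those titled WT. The 8 markers listed for these cells summed to 58.8 to 566 TPM in the libraries titled Tumor and to 31.1 to 302 TPM in those titled WT, a list that includes Ly6d, which B cells express too, and Cox6a2, which muscle expresses too. Their part in the difference was not tested.

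Stat2, the Stat protein particular to the type I and type III interferon response, was at 51.3, 63.5 and 57.0 TPM in the libraries titled Tumor and at 40.5, 30.3 and 33.3 TPM in those titled WT. The groups did not overlap, before or after either scaling. The means were 57.3 ± 6.11 and 34.7 ± 5.24 TPM (SD, n = 3), a ratio of 1.65 and a log2 difference of 0.71 (95% interval 0.28 to 1.14, limma adjusted p = 0.737, unadjusted p = 0.00638). It had the smallest spread within the groups of the 3 members with an unadjusted p below 0.05. Irf9, the DNA-binding partner of Stat2, was at 36.3, 57.0 and 77.5 TPM in the libraries titled Tumor and at 40.0, 42.5 and 27.3 TPM in those titled WT. Each lymphoid-poor library was the lowest of its group, and the groups overlapped through Tumor replicate 1 alone. The log2 difference of Irf9 was 0.58 (SE 0.32, limma adjusted p = 0.737), and it was 0.33 without Tumor replicate 3 and 0.87 without Tumor replicate 1.

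Irf1, a factor induced chiefly by interferon gamma, was at 57.3, 102 and 144 TPM in the libraries titled Tumor and at 112, 89.2 and 57.7 TPM in those titled WT. The lymphoid-poor libraries were the lowest of both groups and nearly equal to each other. The log2 difference was 0.18 (SE 0.40, limma adjusted p = 0.890), and it turned to -0.037 and -0.017 under the median-ratio and the upper-quartile scaling. The Irf7 to Irf1 ratio within a library was 1.56, 1.14 and 0.862 in the libraries titled Tumor and 0.324, 0.787 and 0.674 in those titled WT. It did not overlap between the groups. Of the 36 ratios among the members 5 did not overlap (13.9%), against 10.1% of all pairs of tested genes that were above 0 in every library, so that count is near the background. They were the ratios of Irf7 and Irf9 to Irf1 and those of Irf7, Stat2 and Ifngr1 to Ifnar2, all higher in the libraries titled Tumor.

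Usp18, which removes Isg15 from proteins and blocks signalling at Ifnar2, was at 23.5, 35.2 and 36.2 TPM in the libraries titled Tumor and at 18.8, 22.8 and 8.85 TPM in those titled WT. As for Irf9, each lymphoid-poor library was the lowest of its group. The lowest Tumor value lay just above the highest WT value, and with median-ratio or upper-quartile factors the groups overlapped. The means were 31.7 ± 7.09 and 16.8 ± 7.20 TPM (SD, n = 3), a ratio of 1.88 and a log2 difference of 0.94 (95% interval 0.02 to 1.87, limma adjusted p = 0.737, unadjusted p = 0.0473). Without WT replicate 3 the log2 difference was 0.56, and with the skeletal muscle covariate it was 0.58 (limma adjusted p = 0.762). Socs1, an inhibitor of Janus kinases, was at 1.93, 6.66 and 10.3 TPM in the libraries titled Tumor and at 11.1, 7.80 and 1.21 TPM in those titled WT. It varied 9.17-fold over the 6 libraries, the widest range of the members, and the lymphoid-poor libraries were the lowest. Its log2 difference was 0.03 (95% interval -1.91 to 1.98, limma adjusted p = 0.990), and it turned to -0.15 and -0.13 under the median-ratio and the upper-quartile scaling.

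**Figure D2:**
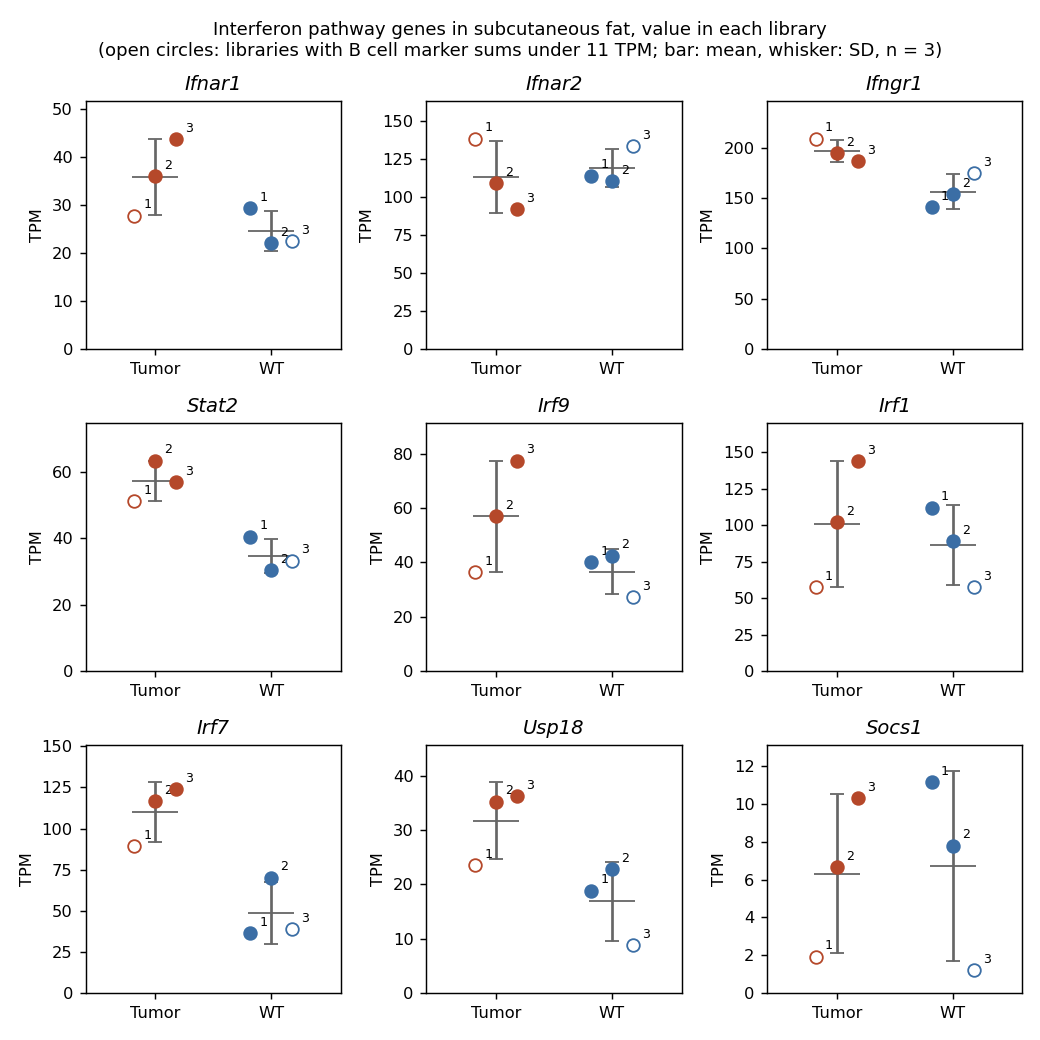
TPM of each gene in every library, Tumor left of WT, with replicate numbers, the group mean as a bar and the SD as whiskers (n = 3 each). Open circles are Tumor replicate 1 and WT replicate 3, with B cell marker sums of 10.7 and 5.03 TPM. Irf7, Stat2, Usp18 and Ifngr1 do not overlap between the groups. Irf9, Irf1, Usp18 and Socs1 are lowest in the open circle of each group.

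The order of the levels was similar in the groups, apart from Irf7. Ifngr1 was the highest member, at 197 TPM in the libraries titled Tumor and 156 TPM in those titled WT, and Socs1 the lowest, at 6.31 and 6.72 TPM. In the libraries titled Tumor, Ifnar2, Irf7 and Irf1 followed Ifngr1 with means of 113, 109.8 and 101 TPM, which did not differ beyond their spread. In the libraries titled WT, Ifnar2 and Irf1 stood at 119 and 86.3 TPM and Irf7 at 48.4 TPM. Stat2 and Irf9 came next, at 57.3 and 56.9 TPM in the libraries titled Tumor and at 34.7 and 36.6 TPM in those titled WT, within their spread of each other. In the libraries titled WT, Irf7 and Irf9 did not differ beyond their spread either. Ifnar1 and Usp18 stood below them.

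The members were then compared within the lymphoid-poor and within the lymphoid-rich libraries, whose lymphoid content was only roughly alike. B cell marker sums were 10.7 TPM in Tumor replicate 1 and 5.03 TPM in WT replicate 3. They were 1585 and 2320 TPM in Tumor replicates 2 and 3, and 929 and 755 TPM in WT replicates 1 and 2. T cell marker sums were 26.6 and 12.3 TPM in the poor pair and overlapped between the groups among the rich libraries. Tumor replicate 1 against WT replicate 3 is 1 library each, so these ratios have no replicate check. These libraries were not alike in muscle content, with marker sums of 1946 TPM in Tumor replicate 1 and 9.83 TPM in WT replicate 3, nor were the lymphoid-rich ones, with 619.7 and 2486 TPM in Tumor replicates 2 and 3 and 19.7 and 2973 TPM in WT replicates 1 and 2. The part of lymphoid cells or muscle in these ratios was not tested. Irf7 was 2.29-fold higher in Tumor replicate 1 than in WT replicate 3, Usp18 2.65-fold and Stat2 1.54-fold, while Irf1 was at a ratio of 0.993. The median ratio over the members was 1.33 and over the genes tested 1.14. Among the 4 lymphoid-rich libraries, the ratio of the means of Tumor replicates 2 and 3 to those of WT replicates 1 and 2 was 2.26 for Irf7, 1.72 for Usp18 and 1.70 for Stat2, against a median ratio of 1.22 over the genes tested. It was 1.63 for Irf9 and 1.55 for Ifnar1, both of which overlapped when all 6 libraries were taken. For 6 members, Ifnar1, Ifngr1, Stat2, Irf9, Irf7 and Usp18, every library titled Tumor lay above each WT library of the same set, poor or rich. The same was so for 33.5% of all genes tested. Socs1 was at 1.59 in the lymphoid-poor pair and at 0.897 among the lymphoid-rich libraries. A limma fit of the 4 lymphoid-rich libraries gave log2 differences of 1.23 for Irf7, 0.76 for Stat2 and 0.76 for Usp18 (limma adjusted p = 0.481, 0.537 and 0.537). Macrophage markers were higher in Tumor replicate 1, as given above, and once the macrophage markers entered as a covariate the log2 difference of Irf7 was 1.43 (limma adjusted p = 0.173). With the B cell markers as a covariate it was 1.16 (limma adjusted p = 0.2502), and 1 gene that is no member passed among all genes (0.00707%).

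**Figure D3:**
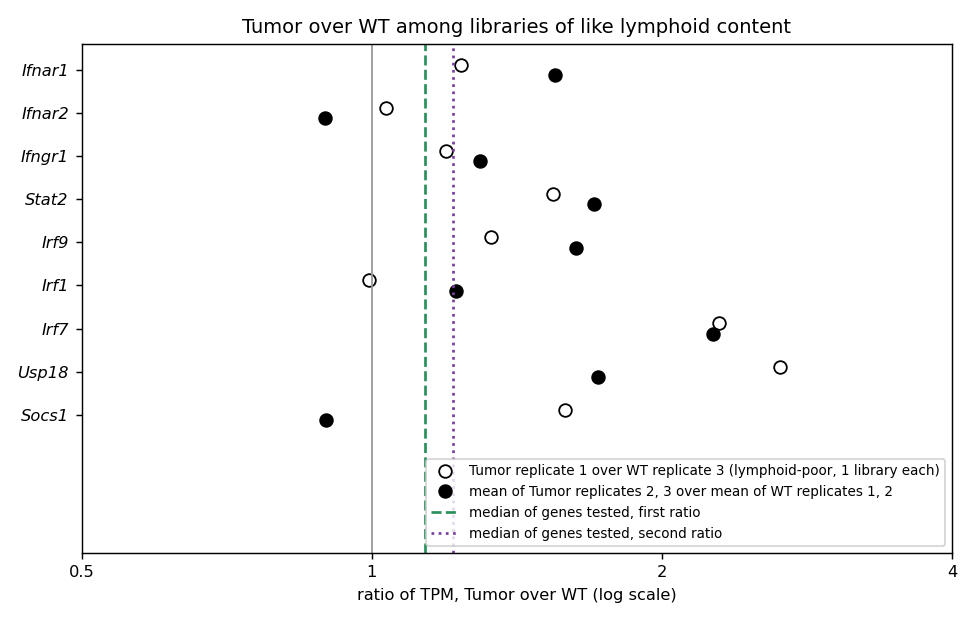
Ratio of TPM, Tumor over WT, on a log axis. Open circles set Tumor replicate 1 against WT replicate 3, 1 library each, and filled circles set the mean of Tumor replicates 2 and 3 against the mean of WT replicates 1 and 2. The vertical lines are the medians of the genes tested, 1.14 and 1.22. Irf7, Usp18, Stat2, Irf9 and Ifnar1 lie to the right of both lines in both comparisons, and Irf1 lies near 1 in the first.

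The interferons themselves were near or at 0. Of 11 listed ligand genes 0 reached the minimum of 1 TPM in 3 libraries. Ifng, made by T and NK cells, was at 0.148, 1.10 and 1.33 TPM in the libraries titled Tumor and at 0.390, 0.610 and 0.0738 TPM in those titled WT, lowest in the lymphoid-poor libraries. Ifnb1 and the alpha and lambda interferons of the list were listed at 0 in all 6 libraries, Ifnk was above 0 in Tumor replicate 1 alone, and Ifnz in WT replicate 3 alone. The number of reads per library is unknown, so no limit can be given for these zeros.

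Other genes of the pathway also had 0 members past the limma threshold, and their lists were chosen with earlier results known. Some signs turned with the scaling. The shares to read the counts against are those over all genes given above, 76.8% positive and 11.8% higher without overlap before scaling. All 4 Janus kinases had a positive difference, or 3 after either scaling, which turned Jak3, and 0 were without overlap between the groups. Their median was 0.53, and 0.32 with median-ratio factors. Jak1, which serves both kinds of receptor, averaged 119 ± 46.4 TPM in the libraries titled Tumor and 79.0 ± 24.8 TPM in those titled WT. Tyk2, the partner of Ifnar1, averaged 24.9 ± 8.04 and 17.1 ± 6.26 TPM (SD, n = 3). Of 6 Stat genes 5 had a positive difference, also after either scaling. Stat2, Stat3 and Stat5b did not overlap between the groups, and 1 of these, Stat2, was still without overlap after median-ratio scaling and 2, Stat2 and Stat5b, after upper-quartile scaling. Stat6, which serves interleukin-4 signalling, averaged 91.3 ± 21.9 TPM in the libraries titled Tumor and 69.7 ± 16.3 TPM in those titled WT (SD, n = 3). Ifngr2 averaged 40.7 ± 16.4 and 28.3 ± 10.1 TPM, and Il10rb, a chain of the lambda interferon receptor, 71.6 ± 6.37 and 49.2 ± 5.17 TPM, without overlap (limma adjusted p = 0.737).

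Of the 9 Irf genes all had a positive difference in TPM, or 7 after either scaling, which turned Irf1 and Irf4. Their median was 0.58, or 0.37 with median-ratio factors, and Irf7 was the 1 without overlap, with or without scaling. Irf8, a factor of B cells and myeloid cells, was at 24.1, 141 and 193 TPM in the libraries titled Tumor and at 102, 78.2 and 12.8 TPM in those titled WT, which follows the B cell markers. Irf3, which acts upstream of type I interferon, averaged 174 ± 46.7 and 136 ± 21.5 TPM, and Irf5 59.2 ± 20.0 and 30.3 ± 12.7 TPM (SD, n = 3). Of 12 negative regulators 12 had a positive difference, or 8 after either scaling, which turned Socs1, Cish, Ptpn11 and Irf2bp1. Their median was 0.38, and Usp18, Pias3 and Irf2bp2 did not overlap between the groups (25%, against 11.8% of all genes tested). After median-ratio scaling 0 were without overlap and after upper-quartile scaling 1, Irf2bp2, was. Ptpn6, a phosphatase of blood cells, was at 33.6, 287 and 403 TPM in the libraries titled Tumor and at 197, 110.4 and 11.7 TPM in those titled WT. Among 30 type I response genes 30 had a positive difference, with or without scaling, and a median of 0.83, or 0.62 with median-ratio factors. Of these 22 were without overlap (73.3%, against 11.8% of all genes tested), or 10 after median-ratio scaling (33.3%, against 3.79%) and 12 after upper-quartile scaling (40%, against 4.5%). Bst2 averaged 210.4 ± 20.3 and 142 ± 46.3 TPM and Rtp4 64.4 ± 9.39 and 39.5 ± 3.71 TPM. Xaf1 averaged 74.4 ± 6.36 and 44.1 ± 3.73 TPM. Ifi35 averaged 78.6 ± 16.8 and 62.6 ± 14.3 TPM, and its values overlapped between the groups. Among 19 tested gamma response genes 19 had a positive difference, or 18 after either scaling, which turned Wars. Their median was 0.66, or 0.45 with median-ratio factors, and 7 were without overlap (36.8%), or 5 after median-ratio scaling (26.3%) and 6 after upper-quartile scaling (31.6%). Psmb8, a subunit of the immunoproteasome, was at 150.3, 315 and 423 TPM in the libraries titled Tumor and at 268, 248 and 134 TPM in those titled WT, lowest in the lymphoid-poor libraries.

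**Figure D4:**
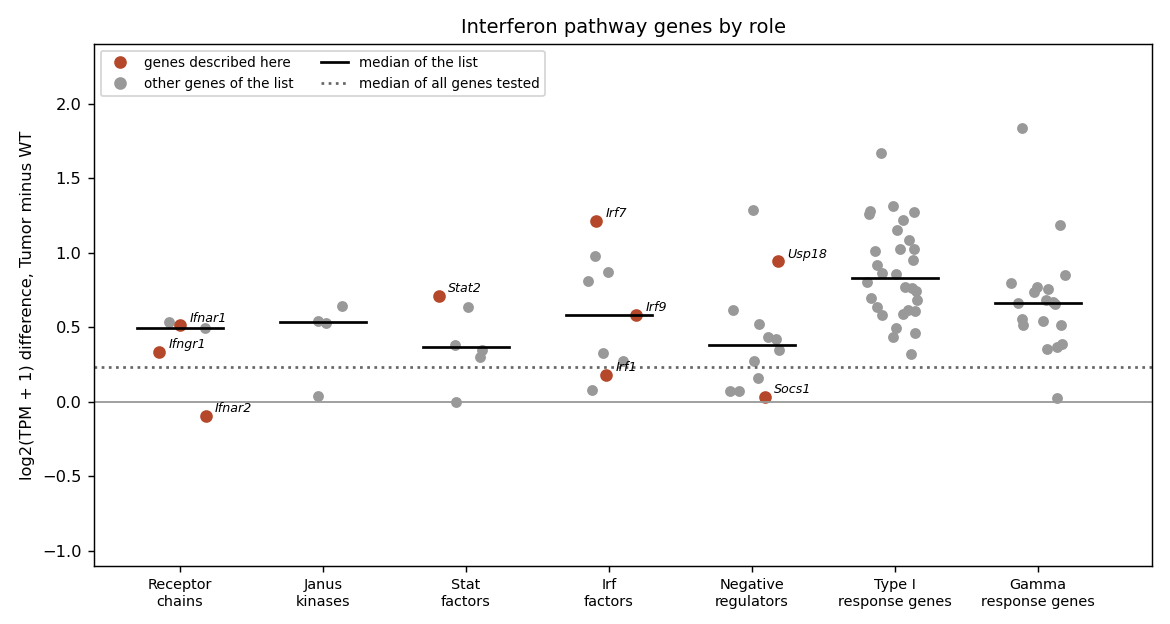
Difference of each tested pathway gene between the groups, on the log2(TPM + 1) scale as Tumor minus WT, by role. Black lines are the medians of the lists, which run from 0.36 for Stat factors to 0.83 for type I response genes, and the dotted line is the median of all genes tested, 0.23. Irf7 is the highest of the Irf factors, and Ifnar2 the lowest of the receptor chains.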

How the data were processed

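Poly-A RNA of subcutaneous white adipose tissue was measured in 6 libraries, grouped by their titles, 3 Tumor and 3 WT. The labels do not say whether the biological replicates are separate mice, so that p-values measure the spread between these samples. The authors deposited 1 table of TPM under a name that speaks of raw counts. Its values are not whole and each column sums to 1000000. Total reads per library are therefore unknown. Per the submitters' processing notes the build is GRCm38.p6, and DESeq2 is named there without a role. Aligner, quantifier and annotation: not given in the sources used here.

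Genes that reached 1 TPM in 3 or more libraries were tested with limma 3.58.1 (R 4.3.3). The values were log2(TPM + 1), variances were moderated robustly along a trend with the mean, and the model held group alone, with Benjamini and Hochberg adjustment over all 14144 genes at 0.05. Differences on this scale understate changes of low genes. The procedure was tested on simulated data, drawn independently for each gene. They lacked the differences in cell types that these libraries share, so that test does not show how small a difference could be found here. The members and lists were chosen with earlier results of these data known. Other genes are named by rule: up to 4 per pathway list by mean TPM (1 listed gene is not reported here), and for each member the 2 genes nearest in profile. Genes outside the rule, such as Siglech, Pias3 and those whose sign turned, were named after their values were seen. Fits with fewer libraries, other pseudocounts, scalings, filters and moderation, a replicate block and cell type covariates, of which that for skeletal muscle was chosen after seeing the data, are given at the end.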

Additional observations from a re-analysis of the deposited data

How the results depend on the processing

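No member passed the limma threshold in any of the 19 alternatives, of which the skeletal muscle covariate was chosen after seeing the data, and the members' median log2 difference was positive in each. It ran from 0.36 to 0.68 when 1 library was left out and was 0.79 with the macrophage list as a covariate. With the B cell list as a covariate 1 gene of 14144 passed (0.00707%), which was not a member, and the cause was not tested. Ifnar1, Ifngr1, Stat2, Irf9, Irf7 and Usp18 kept a positive difference in all 19. The sign of 3 members did not hold, and the cause was not tested. Leaving out 1 library gave -0.12 to 0.54 for Irf1, -0.71 to 0.59 for Socs1 and -0.25 to 0.046 for Ifnar2. Median-ratio factors gave -0.037 for Irf1 and -0.15 for Socs1, and upper-quartile factors -0.017 and -0.13. For Socs1 the value was -0.26 with the B cell covariate, -0.38 with the skeletal muscle covariate and -0.15 without both Tumor replicate 1 and WT replicate 3. Unadjusted, 530 genes were higher and 241 lower at a p below 0.05, which became 128 and 522 with median-ratio factors and 156 and 441 with upper-quartile factors. With the replicate number as a block 0 genes and 0 members passed, with a members' median of 0.51 and 183 genes at an unadjusted p below 0.05, against 771. Deviations of libraries with the same number correlated at -0.76, 0.20 and -0.84. Those of Tumor replicate 1 and WT replicate 3, both lymphoid-poor, correlated at 0.85. The part of cell types in these correlations was not tested, and whether the numbers pair the libraries cannot be told from them. Unknown depth limits the precision of low genes such as Socs1 and Ifng.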

Other observations

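For each member the genes with the nearest profile over the 6 libraries were sought, by the root mean square distance between log2(TPM + 1) profiles centred on their means, among tested genes of at least 5 TPM on average. Irf7 was nearest to Mx2, an interferon-induced antiviral GTPase, at a distance of 0.11, and then to Gzma, a protease of cytotoxic lymphocytes, at 0.18. Mx2 was at 8.41, 11.9 and 14.2 TPM in the libraries titled Tumor and at 3.52, 6.26 and 3.01 TPM in those titled WT. It did not overlap between the groups, which its choice by nearness to Irf7 makes likely. Usp18 was nearest to Adck5 and Ms4a6c (0.088 and 0.10), and Socs1 to Ubd, a ubiquitin-like protein, and Cxcr3, a chemokine receptor of activated T cells (0.14 and 0.18). Irf9 was nearest to Sfpq and Ly6e (0.070 and 0.076), Irf1 to Tubb5 and Pwp2 (0.046 and 0.054), and Stat2 to Ddx51 and Csnk1d (0.056 and 0.071). Ifnar1 was nearest to Mau2 and Rgl2 (0.030 and 0.033), Ifnar2 to Emc7 and Capns1 (0.023 and 0.042), and Ifngr1 to Erlin1 and Glmp (0.048 and 0.050). Among the members themselves the nearest were Ifnar1 and Stat2, at 0.19, and the farthest Ifnar2 and Socs1, at 1.12. These distances are descriptions over 6 libraries that share their differences in cell types.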
